A study of Mus musculus with 10 samples.

Results

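Eicosanoids are signalling lipids made from arachidonic acid, and macrophages are among their main producers in inflamed and tumour tissue. The cyclooxygenases turn arachidonic acid into prostaglandin H2, from which separate synthases make prostaglandin E2, prostaglandin D2 and other prostanoids that act on G protein-coupled receptors. In the other branch, 5-lipoxygenase with its activating protein makes leukotriene A4, which is converted either to leukotriene B4, an attractant of neutrophils, or to the cysteinyl leukotriene C4. The 10 genes described here were chosen by name from the 46603 rows of the deposited count table: the cyclooxygenase genes Ptgs1 and Ptgs2, the prostaglandin synthase genes Ptges and Hpgds, the prostaglandin E2 receptor genes Ptger2 and Ptger4, and the leukotriene genes Alox5, Alox5ap, Lta4h and Ltc4s. Each name matched 1 row, and all 10 passed the filter on low counts.

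The counts came from 10 libraries of macrophages sorted out of mouse 4T1 tumours. 4T1 is a mammary carcinoma cell line that grows as a tumour when grafted into mice; neither the mouse strain and age nor any treatment is stated in the labels. Per the labels' protocols, tumours were digested with collagenase 1 and dispase, and live CD11B+ F4/80+ cells were split by flow sorting into those with and without podoplanin (PDPN), a mucin-like surface protein that is also a marker of lymphatic endothelium. Tumours 1, 2, 4, 5 and 6 each gave 1 PDPN-positive library, which the submitters call PoEMs, and 1 PDPN-negative library, so that there were 5 libraries per fraction; whether each tumour came from a separate mouse is not stated, and p-values measure the spread between these libraries. The study was about PDPN-positive macrophages in lymphatic vessel growth and spread, and the comparison below asked which steps of eicosanoid synthesis and sensing differed between the fractions.

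Library totals lay between 12597829 and 15406722 counts. Values below are CPM (counts scaled to a common library size by TMM), and fold changes are edgeR fits of PDPN-positive against PDPN-negative libraries. Calls needed an adjusted p (Benjamini-Hochberg, 13595 genes) under 0.05, which took in 6.83% of these genes as higher and 6.77% as lower in PDPN-positive libraries. A value after ± is the SD over the 5 libraries of a fraction (n = 5) unless it is called an SE. Pdpn itself averaged 19.3 ± 7.33 CPM in the PDPN-negative fraction and 214.5 ± 22.9 CPM in the other. Macrophage markers dominated both fractions: summed over 10 genes including Csf1r, C1qa and Adgre1 they came to between 14667 and 17452 CPM in PDPN-negative and between 14708 and 18360 CPM in PDPN-positive libraries, with Itgam called higher and Csf1r lower in the latter. Markers of other cells differed between the fractions. In PDPN-positive libraries 9 of 10 fibroblast markers tested were higher (summed level 288.7 to 472.5 CPM against 29.2 to 41.6), while 7 of 7 neutrophil markers tested (96.8 to 132.9 against 211.8 to 290.2 CPM) and 3 of 3 eosinophil markers tested (2.53 to 5.51 against 26.02 to 57.1 CPM) were lower.

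In the fit by group alone, Ptges and Ptger2 were higher in PDPN-positive libraries, and the other 8 genes did not pass the test. Ptger2 encodes EP2 and Ptger4 encodes EP4, the 2 receptors through which prostaglandin E2 raises cyclic AMP, and Ptges encodes the inducible microsomal synthase of that ligand. The 2 of 10 genes called higher stand beside 6.83% of all genes, and the 0 of 10 called lower beside 6.77%. The median fitted change of the 10 genes was -0.11 on the log2 scale, and that of all tested genes was 0.01. With the tumour as a block, which compares the fractions within each tumour, Ptger4 was also called, as lower. That fit called 13.8% of all genes higher and 14.3% lower. DESeq2 called Ptger4 lower without the block (adjusted p = 0.0132) and with it (1.58e-05).

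The stretches upstream of Ptges, Ptger2 and Ptger4 are shown because these are the genes whose levels passed either fit. Each is the 250 bases before the annotated start, 5′ to 3′ on the gene's strand, from RefSeq (GRCm38.p6). The RefSeq start of Ptges lies inside the longer gene span that GENCODE gives. Capitals mark GC boxes (GGGCGG) and the core of PU.1 sites (GAGGAA, PU.1 being a macrophage transcription factor), each searched on both strands.
Ptges (chr2:30903298-30903547, minus strand): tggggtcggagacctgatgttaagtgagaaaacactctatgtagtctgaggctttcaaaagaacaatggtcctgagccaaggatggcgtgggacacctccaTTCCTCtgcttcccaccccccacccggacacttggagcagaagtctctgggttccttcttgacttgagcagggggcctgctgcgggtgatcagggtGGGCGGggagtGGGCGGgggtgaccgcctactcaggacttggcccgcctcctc
Ptger2 (chr14:44987861-44988110, plus strand): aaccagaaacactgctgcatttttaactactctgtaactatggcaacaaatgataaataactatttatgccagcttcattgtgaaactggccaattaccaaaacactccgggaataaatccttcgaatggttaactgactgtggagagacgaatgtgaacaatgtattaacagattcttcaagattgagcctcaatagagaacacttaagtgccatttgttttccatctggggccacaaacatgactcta
Ptger4 (chr15:5244188-5244437, minus strand): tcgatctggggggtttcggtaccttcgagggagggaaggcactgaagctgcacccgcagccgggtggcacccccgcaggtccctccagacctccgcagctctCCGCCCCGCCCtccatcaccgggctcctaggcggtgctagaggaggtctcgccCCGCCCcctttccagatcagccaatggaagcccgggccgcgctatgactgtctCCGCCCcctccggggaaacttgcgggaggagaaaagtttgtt
These 3 windows differ in composition: G and C made up 38.0% of the Ptger2 window, 59.6% of that of Ptges and 66.8% of that of Ptger4, against a median of 52.4% over 32851 windows of the same length. GC boxes occurred in the Ptges and Ptger4 windows and not in that of Ptger2; 32.7% of all windows held one. The PU.1 core was found upstream of Ptges, Ptgs1, Ptgs2, Hpgds, Alox5 and Lta4h, or 6 of the 9 genes with a window, and in 23.3% of all windows. No member window held the TATA box TATAAA (12.4% of all windows), the cyclic AMP response half-site TGACG (17.8%), the AP-1 site TGANTCA (6.75%), the NF-kB site GGGNNTTCC (4.98%), the E-box CACGTG (6.02%) or the hypoxia response core ACGTG (16.6%), of which the last is contained in the E-box. The C/EBP site TTGCNNAA, in 9.56% of all windows, was upstream of Ptgs2 and Hpgds. A match is a run of letters and not a measured binding site.

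Among the receptors, the EP2 gene Ptger2 (ENSMUSG00000037759, chromosome 14, 44988195 to 45003820 of GRCm38) had the largest fitted change of the 10 genes. Its PDPN-negative libraries measured 3.52, 5.44, 4.48, 4.83 and 8.48 CPM in tumours 1, 2, 4, 5 and 6, and the PDPN-positive libraries 8.29, 9.89, 8.80, 12.3 and 10.9 CPM. Every tumour had more Ptger2 in its PDPN-positive fraction, a pattern that 17.4% of tested genes shared, and the groups touched only where PDPN-negative tumour 6 slightly exceeded PDPN-positive tumour 1. The fitted change was 0.90 ± 0.20 on the log2 scale (SE), or 1.87-fold (edgeR adjusted p = 0.0116, and 0.000191 with the tumour as a block). No single library decided the call, since leaving out each in turn gave adjusted p-values from 0.000895 to 0.0326. Without the block, leaving out both libraries of tumour 2, 4 or 5 gave 0.0541, 0.0543 and 0.0681. Between 45 and 161 counts per library lay behind these values, and the antisense gene Gm17173, which shares exon bases with it, had at most 5 counts in a library.

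The EP4 gene Ptger4 (ENSMUSG00000039942, chromosome 15, 5206661 to 5244187) was far more abundant and lay lower in the PDPN-positive fraction of every tumour, as 17.6% of tested genes did. It measured 72.1, 102, 112.3, 100.2 and 62.1 CPM in the PDPN-negative libraries of tumours 1, 2, 4, 5 and 6, and 61.1, 70.0, 68.8, 64.5 and 57.5 CPM in the PDPN-positive ones. Tumours 2, 4 and 5 had a wide gap between fractions, whereas in tumours 1 and 6 both fractions were within the PDPN-positive range or close to it. The change of -0.48 ± 0.15 on the log2 scale (SE) missed the threshold without the block (edgeR adjusted p = 0.0570) and passed it in the blocked fit (-0.45 ± 0.09 SE, adjusted p = 0.00347, and between 0.000109 and 0.0210 when 1 tumour was left out of that fit). Without the block, the call appeared on leaving out PDPN-negative tumour 1 (0.0323) or PDPN-negative tumour 6 (0.00643). Ttc33, on the opposite strand, shares 82 exon bases with Ptger4 and did not pass the test (edgeR adjusted p = 0.703). The pseudogene Gm15937, also on the opposite strand, shares 1015 exon bases with Ptger4 and had at most 3 counts in a library. The sources used here do not say whether the counting used strand, and the effect of these shared bases on the Ptger4 level was not tested.

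Relative to each other, the 2 receptor genes shifted by more than either did alone, which follows from their changes in opposite directions. Their ratio reuses the values above and is not separate support. The ratio of Ptger2 to Ptger4 counts within a library was 0.0596 over the PDPN-negative and 0.156 over the PDPN-positive libraries. On the log2 scale it averaged -4.09 ± 0.70 and -2.69 ± 0.28, a difference of 1.40 or 2.64-fold, and rose in 5 of 5 tumours (two-sided exact permutation p = 0.0238, and 0.0476 after adjustment over 4 ratios). By pairs the exact p was 0.0625, the smallest that 5 pairs allow. PDPN-negative tumour 6, at -2.87, lay within the PDPN-positive range of -2.96 to -2.39, and the other 4 PDPN-negative libraries lay between -4.64 and -4.22. Leaving out any 1 of PDPN-positive tumours 1, 2, 5 and 6 gave an adjusted p of 0.0635.

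**Figure D1:**
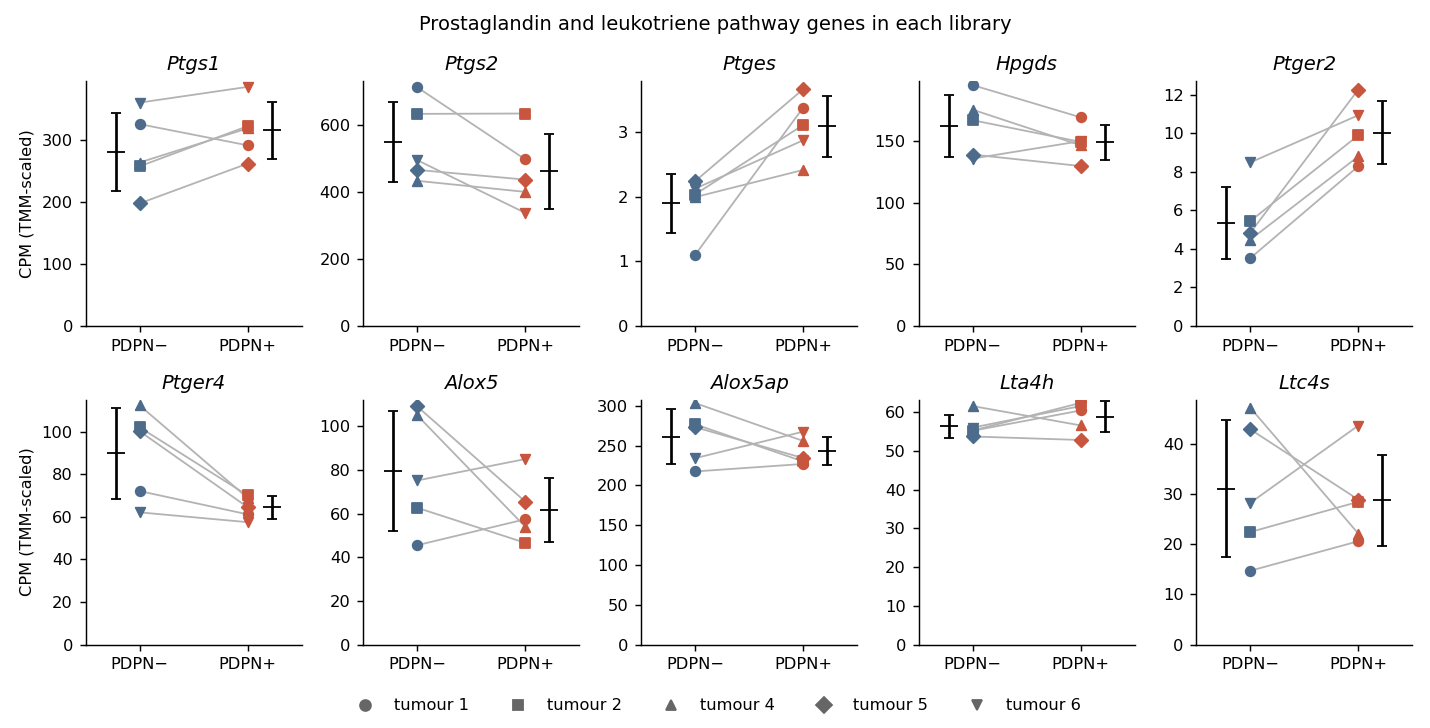
TMM-scaled CPM (vertical axes, from 0) of each of the 10 genes in PDPN-negative (blue) and PDPN-positive (red) libraries; a line joins the fractions of a tumour and bars give mean and SD of 5 libraries. The lines for Ptger2 and Ptges all slope up, those for Ptger4 all slope down, and those for Alox5 and Ltc4s cross.

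Of the prostaglandin synthases, Ptges (ENSMUSG00000050737, chromosome 2, 30889471 to 30929863) was scarce but higher in PDPN-positive libraries. The PDPN-negative libraries of tumours 1, 2, 4, 5 and 6 held 1.09, 2.03, 1.99, 2.23 and 2.12 CPM and the PDPN-positive ones 3.37, 3.11, 2.41, 3.66 and 2.87 CPM. All 5 PDPN-positive values lay above all 5 PDPN-negative values, as they did for 5.38% of tested genes, with 5.13% the other way round. The fitted change was 0.69 ± 0.20 on the log2 scale (SE), or 1.62-fold (edgeR adjusted p = 0.0393, and 0.0181 with the tumour as a block), from 14 to 48 counts per library. That call is close to the threshold: it was lost, at adjusted p-values of 0.0507 to 0.0881, without any 1 of PDPN-negative tumours 1, 2, 4 and 5 or PDPN-positive tumours 1, 2, 5 and 6. DESeq2 with the block did not call Ptges (0.0821), edgeR without the block lost it without any 1 of the 5 tumours (0.0628 to 0.119), and the blocked fit lost it without tumour 1 (0.0721) or 5 (0.0540). Fibroblast markers, which rose in the same libraries, are given above; their part in the change of Ptges or Ptger2 was not tested. In bulk libraries of this kind a different share of cells and a different amount of RNA per cell cannot be told apart.

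Hpgds, which encodes the haematopoietic synthase of prostaglandin D2, was much more abundant. It measured 195.5, 167, 175.6, 139.1 and 135.9 CPM in PDPN-negative and 169.3, 149.4, 146.6, 129.8 and 150.0 CPM in PDPN-positive libraries, in the same order of tumours. The ranges overlapped widely and the change of -0.13 ± 0.10 on the log2 scale (SE) did not pass the test (edgeR adjusted p = 0.464, and 0.139 with the tumour as a block). With 1 tumour left out, the blocked fit called Hpgds lower only without tumour 6 (edgeR adjusted p = 0.0120). The ratio of Ptges to Hpgds, genes whose products compete for prostaglandin H2, averaged -6.42 ± 0.61 on the log2 scale in the PDPN-negative fraction and -5.59 ± 0.28 in the PDPN-positive one. It was 1.79-fold higher in PDPN-positive libraries, in 5 of 5 tumours (two-sided exact permutation p = 0.00794, the smallest that 5 against 5 allow, and 0.0317 after adjustment over 4 ratios, with exact paired p = 0.0625). Leaving out any 1 of PDPN-positive tumours 1, 2, 5 and 6 raised the adjusted p to 0.0635. This ratio reuses the Ptges and Hpgds values above and is not separate support for the change of Ptges.

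Both cyclooxygenase genes were abundant in both fractions. Ptgs2, which encodes the inducible enzyme COX-2, measured 712.2, 633, 433.3, 465.8 and 495 CPM in the PDPN-negative libraries of tumours 1, 2, 4, 5 and 6. In the PDPN-positive libraries it measured 497, 634.1, 400.2, 436.8 and 337.3 CPM. Tumours 1 and 6 had the widest gaps, with less in the PDPN-positive fraction, and tumour 2 had almost equal amounts in both. The change of -0.25 ± 0.18 on the log2 scale (SE) did not pass in edgeR (adjusted p = 0.415, and 0.0585 with the tumour as a block). DESeq2 called Ptgs2 lower with the block (adjusted p = 0.0120) and not without it (0.367). With 1 tumour left out, the blocked edgeR fit called it only without tumour 2 (adjusted p = 0.0261). Ptgs2 is also an immediate early gene, of the class induced within minutes of a stimulus, and cells here were released by enzymatic digestion. Of 8 other immediate early genes, 7 passed the test and Jun did not. Fos, Fosb, Egr1, Nr4a1, Ier2, Atf3 and Dusp1 fell by 0.48 to 0.91 on the log2 scale in PDPN-positive libraries. All 8 were chosen after their values were seen, so the number called is not a test of this class. Over all tested genes, 6.77% were called lower. The share of digestion in the level of Ptgs2 was not tested.

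Ptgs1, the gene of the constitutive enzyme COX-1, stood at 325.1, 257.1, 263.3, 197.4 and 359.7 CPM in PDPN-negative and 290.9, 321.8, 318.3, 261.6 and 385.1 CPM in PDPN-positive libraries. It was higher in the PDPN-positive fraction of 4 of 5 tumours, tumour 1 being the exception. The change did not pass the test (fitted log2 change 0.17 ± 0.15 SE, edgeR adjusted p = 0.516, and 0.0816 with the tumour as a block). With 1 tumour left out, the blocked fit called Ptgs1 higher only without tumour 1 (edgeR adjusted p = 0.00599). The log2 ratio of Ptgs2 to Ptgs1 averaged 0.97 ± 0.36 in the PDPN-negative fraction and 0.53 ± 0.46 in the PDPN-positive one. It was lower in the PDPN-positive fraction of 5 of 5 tumours, but the ranges overlapped and the difference of -0.44 did not pass (two-sided exact permutation p = 0.143, 0.190 after adjustment over 4 ratios, exact paired p = 0.0625).

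**Figure D2:**
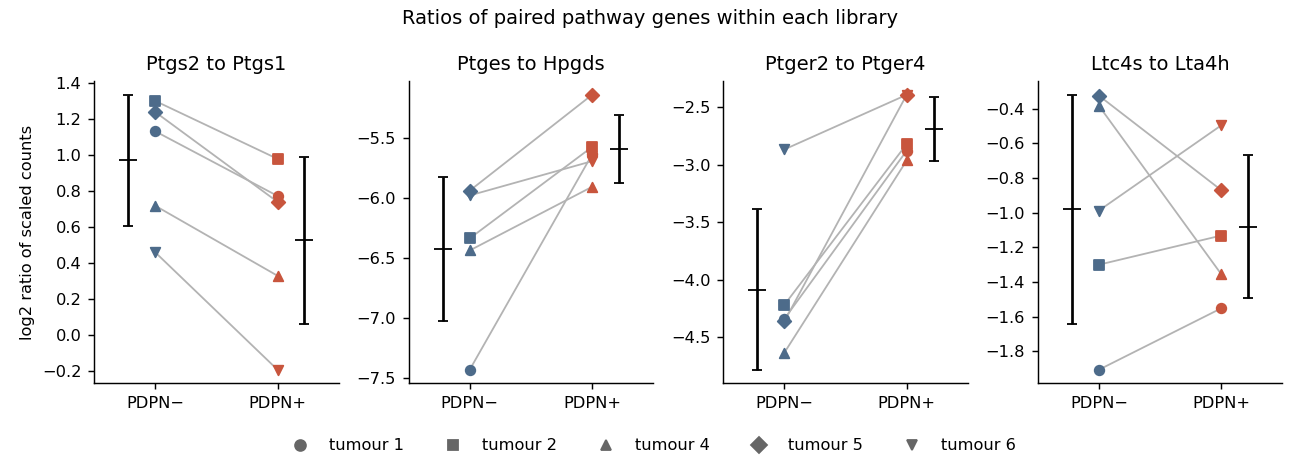
Log2 ratio of scaled counts (vertical axes, each with its own range) for 4 pairs of genes in PDPN-negative (blue) and PDPN-positive (red) libraries; lines join the fractions of a tumour and bars give mean and SD of 5 libraries. The ratios of Ptges to Hpgds and of Ptger2 to Ptger4 rose in 5 of 5 tumours, that of Ptgs2 to Ptgs1 was lower in 5 of 5, and that of Ltc4s to Lta4h was higher in 3.

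None of the 4 leukotriene genes passed the test in either fit, and they differed in how much they varied between tumours. Alox5, which encodes 5-lipoxygenase, measured 45.5, 62.7, 105, 109.1 and 75.2 CPM in PDPN-negative libraries and 57.4, 46.6, 53.9, 65.5 and 85.0 CPM in PDPN-positive libraries of tumours 1, 2, 4, 5 and 6. Tumours 4 and 5 had by far the most in their PDPN-negative fraction; the PDPN-positive one held less there, while tumours 1 and 6 went the other way. The fitted change was -0.37 ± 0.25 on the log2 scale (SE, edgeR adjusted p = 0.383, and 0.391 with the tumour as a block).

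Ltc4s, the gene of leukotriene C4 synthase, resembled Alox5 in which tumours were high. It measured 14.7, 22.4, 47.2, 42.9 and 28.2 CPM in PDPN-negative and 20.6, 28.5, 22.1, 28.9 and 43.7 CPM in PDPN-positive libraries. Tumours 4 and 5 were again highest among the PDPN-negative libraries and tumour 6 highest among the PDPN-positive ones, and the groups overlapped almost fully (fitted log2 change -0.12 ± 0.33 SE, edgeR adjusted p = 0.858). The sign of that change turned on leaving out PDPN-negative tumour 4 (0.075) or PDPN-negative tumour 5 (0.025). The coefficients of variation of Ltc4s, 44.1% for PDPN-negative and 31.8% for PDPN-positive libraries, were the largest of the 10 genes in each fraction. Mast cells and basophils express Hpgds, Alox5 and Ltc4s too, and their summed markers came to 4.93 to 13.96 CPM in PDPN-negative and 1.63 to 3.97 CPM in PDPN-positive libraries. Eosinophils also make leukotriene C4. Summed markers of mast cells and basophils and of eosinophils were each lower in the PDPN-positive fraction of 5 of 5 tumours, and their part in the level of Ltc4s was not tested. The eosinophil genes Prg2, Epx, Ear1 and Ear6 had 116, 14, 1 and 4 counts over the 5 PDPN-negative libraries and 0 in every PDPN-positive library, where a count of 0 allows up to 3 counts, or between 0.196 and 0.233 CPM in these libraries.

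Lta4h, whose product makes leukotriene B4 from the same precursor, was the steadiest of the 10 genes. It ran from 53.7 to 61.6 CPM (median 55.3) in PDPN-negative and from 52.8 to 62.4 CPM (median 60.4) in PDPN-positive libraries, with coefficients of variation of 5.39% and 6.82%. The change was 0.06 ± 0.06 on the log2 scale (SE, edgeR adjusted p = 0.573). Alox5ap, which encodes the membrane protein that presents arachidonic acid to 5-lipoxygenase, measured 217.6, 277, 303.7, 273.4 and 234.2 CPM in PDPN-negative libraries. Its PDPN-positive libraries measured 227, 230.2, 256, 234.5 and 267.6 CPM, so that tumours 2, 4 and 5 had less and tumours 1 and 6 more than in the PDPN-negative fraction (edgeR adjusted p = 0.496, fitted log2 change -0.10 ± 0.09 SE). The log2 ratio of Ltc4s to Lta4h averaged -0.98 ± 0.66 in the PDPN-negative fraction and -1.08 ± 0.41 in the PDPN-positive one (two-sided exact permutation p = 0.778, also after adjustment over 4 ratios).

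**Figure D3:**
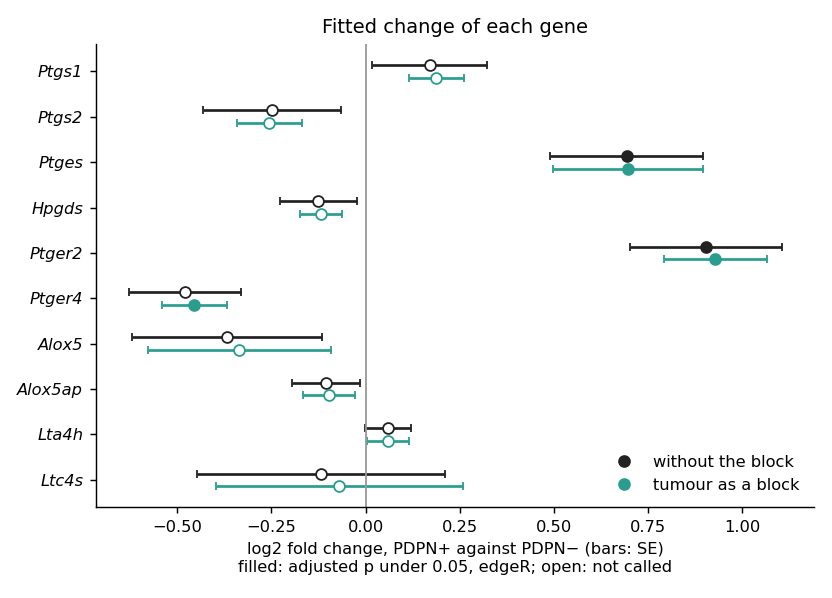
Fitted log2 fold change of PDPN-positive against PDPN-negative libraries (horizontal axis) for each of the 10 genes, without the block (black) and with the tumour as a block (green), with its SE; filled points had an adjusted p under 0.05. Ptges and Ptger2 are filled in both fits, at 0.69 and 0.90 without the block, and Ptger4 in the blocked fit only, at -0.45.

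Levels of different genes were compared as CPM per kilobase of annotated exon. On the opposite strand, Gm26542 shares 268 of the 1014 exon bases of Ltc4s, and Gm19719 shares 189 of the 1420 of Alox5ap. Gm15937 shares 1015 of the 6648 of Ptger4. Whether the counting used strand is not given, and the effect of shared bases on these levels was not tested. In both fractions the order by exon length was Alox5ap, Ptgs2, Ptgs1, Ltc4s, Hpgds, Alox5, Ptger4, Lta4h, Ptger2 and Ptges. Alox5ap averaged 183.9 ± 24.5 CPM per kilobase in the PDPN-negative fraction and 171.2 ± 12.5 in the PDPN-positive one, and Ptges 0.482 ± 0.116 and 0.784 ± 0.121. Of the 9 neighbouring pairs, 4 did not overlap over 5 libraries in the PDPN-negative fraction: Ptgs2 above Ptgs1, Ptgs1 above Ltc4s, Lta4h above Ptger2 and Ptger2 above Ptges. In the PDPN-positive fraction 5 did not: Alox5ap above Ptgs2, Ptgs1 above Ltc4s, Alox5 above Ptger4, Lta4h above Ptger2 and Ptger2 above Ptges. The order depends on the length used. Per kilobase of coding sequence Hpgds, at 272.4 ± 42.2 and 249.7 ± 23.5 in the PDPN-negative and PDPN-positive fractions, stood above Ptgs1, at 155.3 ± 35.03 and 174.7 ± 25.4, without overlap in either. By coding length Ptger4 came before Ltc4s and Alox5 before Lta4h in the PDPN-negative fraction, both pairs were the other way round in the PDPN-positive one, and Ptger2 and Ptges overlapped in both. By exon length Ltc4s, Hpgds and Alox5 were neighbours that overlapped in both fractions. Ptger4, at 13.5 ± 3.23 CPM per kilobase of exon, was above Ptger2, at 1.03 ± 0.363, in the PDPN-negative libraries, and in the PDPN-positive libraries the values were 9.68 ± 0.790 and 1.93 ± 0.310.

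**Figure D4:**
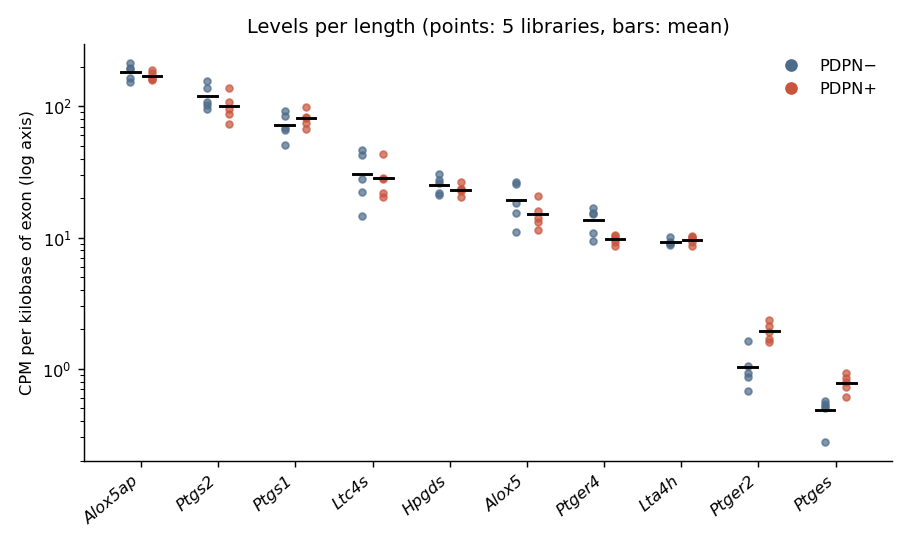
CPM per kilobase of annotated exon (log axis) of the 10 genes in 5 PDPN-negative (blue) and 5 PDPN-positive (red) libraries, with bars at the means. By exon length, though not by coding length, both fractions give the same order, from Alox5ap at 183.9 and 171.2 down to Ptges at 0.482 and 0.784.

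The remaining genes of eicosanoid handling were followed in 7 lists of 71 genes, of which 70 were found in the table and 44 passed the filter on low counts. Of these 44 genes, 2 rose and 9 fell in PDPN-positive libraries, beside 6.83% and 6.77% of all genes, and their median change was -0.06 on the log2 scale. The blocked fit called 11 higher and 16 lower, beside 13.8% and 14.3%. Without the block, no call fell in the lists of other prostanoid synthases and other prostanoid receptors. The steps are given in turn.

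At the release of arachidonic acid, 1 of 15 tested genes was higher and 3 were lower; the blocked fit called 3 higher and 6 lower. Pla2g4a, which encodes the cytosolic phospholipase A2 that frees arachidonic acid for both branches, measured 85.6, 90.9, 81.8, 90.8 and 80.2 CPM in PDPN-negative and 96.3, 110.3, 99.6, 116.7 and 97.2 CPM in PDPN-positive libraries. All PDPN-positive values lay above all PDPN-negative values, as for 5.38% of tested genes. The change was 0.28 ± 0.07 on the log2 scale (SE, edgeR adjusted p = 0.0172). Without the block, the call was lost in 2 of 5 fits that left out both libraries of a tumour (largest adjusted p = 0.0823). Mgll, the gene of monoacylglycerol lipase, which yields arachidonic acid from an endocannabinoid, fell from 4.69 ± 1.71 to 0.660 ± 0.253 CPM, or 7.14-fold (edgeR adjusted p = 0.000161). Daglb, which encodes the lipase that acts before it, fell from 120.5 ± 13.99 to 88.7 ± 3.99 CPM. Mboat7, whose product returns arachidonic acid to phosphatidylinositol, fell from 90.9 ± 4.16 to 70.55 ± 3.47 CPM (edgeR adjusted p = 0.00248 for Daglb and 0.000838 for Mboat7).

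Beyond the cyclooxygenases, none of 6 other prostanoid synthase genes and none of 2 other prostanoid receptor genes tested passed in edgeR without the block; with it, 2 of the synthase genes were called higher. Tbxas1, the thromboxane synthase gene, was abundant at 231.6 ± 11.03 CPM in PDPN-negative and 264.4 ± 21.9 CPM in PDPN-positive libraries (edgeR adjusted p = 0.0782, and 0.0182 with the tumour as a block). Tbxas1 was also called by DESeq2 without the block (adjusted p = 0.0480) and in edgeR without PDPN-positive tumour 1 (0.0440). Platelets also carry Ptgs1 and Tbxas1: of their markers Pf4 and Ppbp were higher and Itga2b was lower in PDPN-positive libraries, and Gp1bb, Gp9 and Gp6 had 0 counts in all 10. Cbr1, which encodes a carbonyl reductase that acts on prostaglandin E2, was called higher in edgeR with the block (adjusted p = 0.0977 without it and 0.0214 with it) but not by DESeq2 with the same block (0.127). Of the receptors, Ptger1 measured 3.83 ± 0.940 and 3.32 ± 0.7001 CPM and the prostacyclin receptor gene Ptgir 4.69 ± 1.94 and 5.22 ± 1.09 CPM (edgeR adjusted p = 0.565 and 0.793). The other 5 receptor genes lay below the filter, among them Ptger3 with 10 counts over the PDPN-negative and 4 over the PDPN-positive libraries and Ptgdr with 0 in all 10 libraries. Hpgd, the gene of the enzyme that inactivates prostaglandins, had 30 counts over the PDPN-negative and 36 over the PDPN-positive libraries. Ptgr2, which acts on the products of that enzyme, was 1.19-fold lower (edgeR adjusted p = 0.0172). Its call was lost in 2 of 5 fits without the block that left out a tumour (largest adjusted p = 0.0846). Slco3a1, which encodes a prostaglandin transporter, missed the threshold in edgeR without the block (adjusted p = 0.0917) and was called lower with it (0.000144), by DESeq2 without it (0.0441) and in edgeR without PDPN-positive tumour 2 (0.0386).

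On the leukotriene side 1 of 7 genes for conversion, transport and breakdown was higher and 2 were lower; with the block 4 were higher (Abcc1, Mgst3, Dpep3 and Ephx1) and the lower ones numbered 2. Abcc1, which encodes the transporter that exports leukotriene C4, rose from 77.4 ± 10.6 to 98.5 ± 6.00 CPM (edgeR adjusted p = 0.0212, and 0.0533 without PDPN-positive tumour 1). Ggt5, whose product converts leukotriene C4 to D4, fell from 34.3 ± 4.04 to 25.4 ± 4.87 CPM (adjusted p = 0.0358). Cyp4f18, which encodes a hydroxylase of leukotriene B4, fell from 63.5 ± 22.6 to 33.8 ± 5.94 CPM (adjusted p = 0.0307). The 7 neutrophil markers tested were lower in the same libraries, and their part in the fall of Cyp4f18 was not tested. Cysltr1, the receptor gene for cysteinyl leukotrienes, was the 1 called gene of 3 receptors tested and fell 1.21-fold (adjusted p = 0.0395). These last 3 calls depended on single libraries: the largest adjusted p with 1 library left out was 0.0879 for Ggt5, 0.0764 for Cyp4f18 and 0.103 for Cysltr1. The call was lost without PDPN-negative tumours 2, 4 or 5 or PDPN-positive tumours 1, 2 or 4 for Ggt5, and without PDPN-negative tumours 2 or 5 or PDPN-positive tumours 1, 4 or 6 for Cyp4f18. For Cysltr1 it was lost without any 1 library except PDPN-negative tumours 5 and 6. It was also lost for Cyp4f18 without a filter on low counts (0.0796) and for Cysltr1 with scaling by library size alone (0.0617). Ltb4r1, the high-affinity leukotriene B4 receptor gene, was higher in the PDPN-positive fraction of every tumour, as 17.4% of tested genes were. It passed only with the block (edgeR adjusted p = 0.432 without it and 0.00819 with it).

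Of the 44 genes, Alox15 and Mgll had the largest fitted changes. Alox15, which encodes 12/15-lipoxygenase, measured 30.9, 86.5, 31.7, 58.7 and 50.6 CPM in PDPN-negative and 4.22, 9.68, 1.43, 3.35 and 6.20 CPM in PDPN-positive libraries, a 10.5-fold fall (fitted log2 change -3.39 ± 0.47 SE, edgeR adjusted p = 0.00171). Every PDPN-negative library lay above every PDPN-positive one, as for 5.13% of tested genes. Eosinophils as well as some macrophages express Alox15, and the eosinophil markers Siglecf and Ccr3 fell in the same libraries, from 16.4 ± 6.23 to 2.55 ± 0.956 CPM and from 16.7 ± 4.59 to 0.828 ± 0.337 CPM; their part in the fall of Alox15 was not tested. Gpr132, the gene of a receptor for oxidised fatty acids and lactate, fell from 218.8 ± 30.02 to 110.9 ± 18.2 CPM (adjusted p = 0.000303). Below the filter, Alox12e had 68 counts over the PDPN-negative and 2 over the PDPN-positive libraries and Ptgdr2, a prostaglandin D2 receptor gene of eosinophils and basophils, 21 and 1. Each gave an exact permutation p of 0.00794, the smallest possible, and 0.438 after adjustment over the 10378 genes below the filter that had a count. None of those genes passed after adjustment. With 5 libraries against 5 the exact p cannot be smaller, so the adjusted value cannot decide whether either gene differed.

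**Figure D5:**
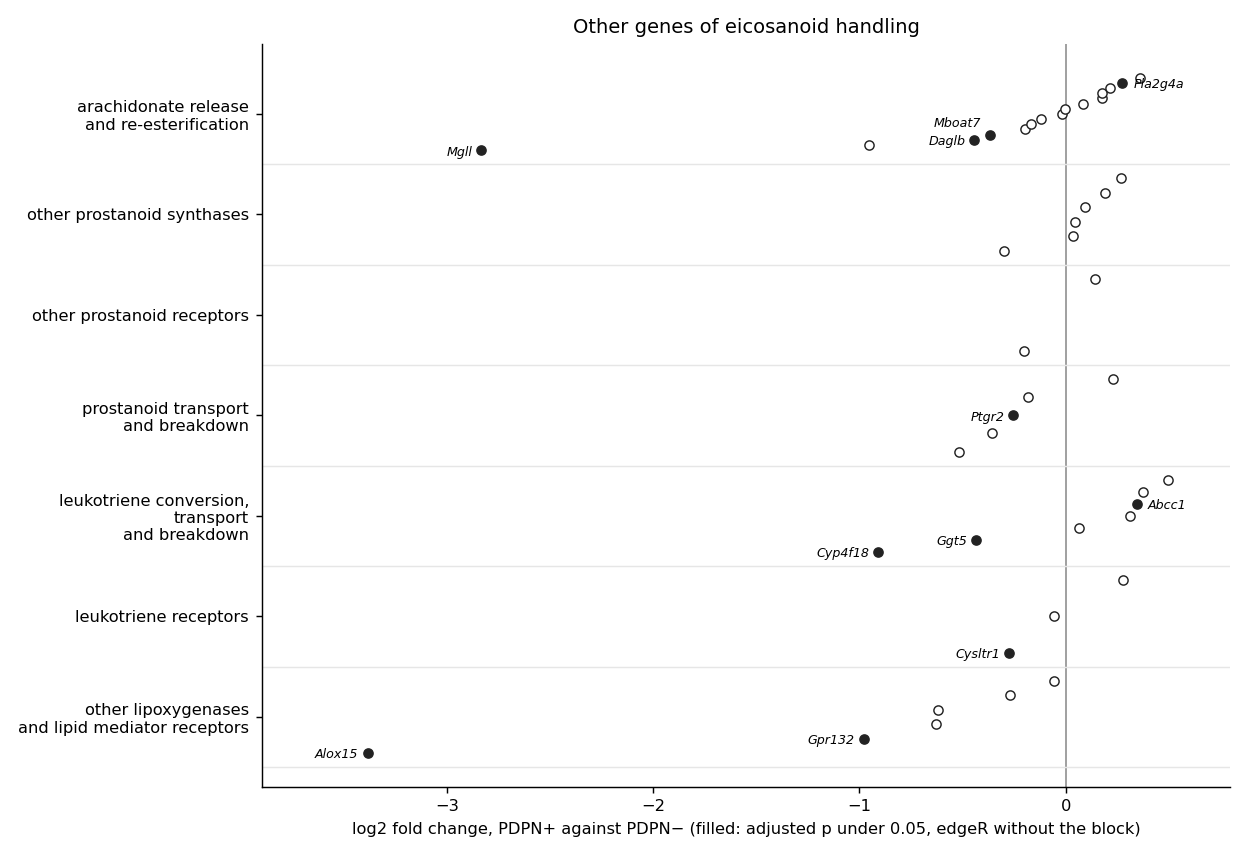
Fitted log2 fold change of PDPN-positive against PDPN-negative libraries (horizontal axis, without the block) for the 44 tested genes of 7 lists of eicosanoid handling; each point is a gene and named, filled points had an adjusted p under 0.05. Alox15 at -3.39 and Mgll at -2.84 lie farthest from 0, and the 2 called increases, Pla2g4a and Abcc1, lie at 0.28 and 0.35.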

How the data were processed

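RNA was pre-amplified with SMART-Seq, per the labels' protocols. The authors deposited a table of whole read counts per gene for all 10 libraries, without molecular identifiers. Per the submitters' processing notes the tools included featureCounts 1.5.3, STAR 2.5.2b, cutadapt 1.15 and Bowtie2 2.3.3.1. Their roles, the genome build and the strand setting were not given in the sources used here. Counts were filtered (filterByExpr, minimum count 10, minimum total 15), scaled by TMM and tested with edgeR 4.0.16 (R 4.3.3, robust quasi-likelihood, group only), with Benjamini-Hochberg adjustment over 13595 genes. A block on the tumour, DESeq2 1.42.0, other filters and scalings and left-out libraries or tumours were alternatives. Fractions share a tumour per the labels, and their deviations from the group means correlated by 0.257 to 0.552 within tumours, so the numbers pair the samples. SE is the fitted change divided by the square root of F. Ratios used counts plus 0.5. Depth gave 0.0652 to 0.0782 CPM per count; a count of 0 allows 3 counts, counting error only. Coordinates and exon lengths are from GENCODE M21 (GRCm38), upstream sequences from RefSeq (9 of 10 genes matched). Only the edgeR fit without the block was run on simulated counts, which held no tumour effect. The blocked, DESeq2 and left-out fits were not. The 10 genes, the lists and the tests were chosen with earlier results of these data known. Named are the 10 genes and, per list, all called genes or those with the lowest p up to 2; Slco3a1, Ptger3, Ptgdr, Hpgd, Alox12e, Ptgdr2, the immediate early genes and genes of like pattern were chosen after their values were seen.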

Additional observations from a re-analysis of the deposited data

Results flagged for a closer look

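Of 64 groups of 5 libraries examined for a library far from the others, 2 had one, where chance alone marks about 1 in 20. Ptges in PDPN-negative libraries had its lowest value, 1.09 CPM, in tumour 1, and the other 4 lay between 1.99 and 2.23 CPM. The log2 ratio of Ptger2 to Ptger4 in PDPN-negative libraries had its highest value, -2.87, in tumour 6.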

How the results depend on the processing

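Counts of called genes moved with the replicate block and with the tumours left out. Genes called higher numbered 929 without it and 1880 with it, and 1505, 1360, 1447, 1398 and 1925 with it and without tumour 1, 2, 4, 5 or 6. Genes called lower numbered 920 and 1950, then 1692, 1380, 1677, 1564 and 2016, and 1445 by DESeq2 with the block. Without the block, leaving out tumour 2, 4 or 5 gave 514, 437 and 595 higher and 503, 482 and 494 lower, and leaving out 1 library gave 617 to 1049 higher and 577 to 1026 lower; fewer libraries were then fitted. Of the 10 genes, those called higher numbered 1 by DESeq2 with the block, 1 with the block without tumour 5, 1 without tumour 1 or 6, 0 without tumour 2, 4 or 5, and 1 to 2 without 1 library. Those called lower numbered 1 by DESeq2, 2 by DESeq2 with the block (Ptger4 and Ptgs2), 1 with the block, 1, 2, 1, 1 and 3 with the block without tumour 1, 2, 4, 5 or 6, 1 without tumour 6, and 0 to 1 without 1 library. Of the 44 other pathway genes, those called higher numbered 11 with the block, 6, 5, 9, 6 and 8 with it without tumour 1, 2, 4, 5 or 6, 5 by DESeq2 with the block, 1 without tumour 1 or 2, 0 without tumour 4, and 2 to 3 without 1 library. Those called lower numbered 16 with the block, 16, 13, 15, 14 and 20 with it without tumour 1, 2, 4, 5 or 6, 14 by DESeq2 with the block, 5 without tumour 2, and 6 to 11 without 1 library. Pairing by tumour left the log2 ratio differences of 0.84 (Ptges to Hpgds) and 1.40 (Ptger2 to Ptger4) at an exact adjusted p of 0.0833, since 5 pairs cannot go below 0.0625. Without 1 library they ran from 0.58 to 0.96 and 1.26 to 1.70, that of Ptgs2 to Ptgs1 from -0.57 to -0.26, and that of Ltc4s to Lta4h from -0.33 to 0.063, turning positive without PDPN-negative tumour 4 (0.049), PDPN-negative tumour 5 (0.063) or PDPN-positive tumour 1 (0.017). The log2 change of Ltc4s turned positive without PDPN-negative tumour 4 (0.075) or 5 (0.025), without tumour 4 (0.16) or 5 (0.021; range without 1 tumour -0.35 to 0.16), and with the replicate block without tumour 4 (0.20) or 5 (0.067). That of Ptgir turned negative without PDPN-negative tumour 1 (-0.069), without tumour 1 (-0.0021; range -0.0021 to 0.29) and with the block without tumour 1 (-0.0052). The cause was not tested. Neighbours apart in the order of levels numbered 4 to 5 in PDPN-negative and 5 to 7 in PDPN-positive libraries without 1 library. Depth limited Ptges most among the 10 genes, with 14 to 48 counts per library, and among the other tested pathway genes Mgll and Pla2g4c had as few as 5 and 6 counts in a library.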

Other observations

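For the leukotriene genes, the tested genes with the most similar pattern over the 10 libraries were sought by the root-mean-square difference of mean-centred log2(CPM + 1), as a description with no test. Tns1, which encodes tensin, an adhesion protein, came first for Alox5 (0.127) and for Ltc4s (0.154). Next for Alox5 were Pde2a (0.143) and Stard8 (0.146). For Ltc4s the second was Gpd1 (0.155), and the third was Folr2 (0.187), the folate receptor gene that marks a class of resident macrophages. Folr2 measured 121.2, 155.5, 321, 351 and 173.7 CPM in PDPN-negative libraries of tumours 1, 2, 4, 5 and 6. Its PDPN-positive libraries measured 173.8, 176.4, 198.8, 253.1 and 329.9 CPM. That Folr2 was high in the same libraries as Ltc4s restates the likeness by which it was found. For Ptger4 the first was Ap1s2 (0.0771), and for Ptger2 it was Mrgpre (0.163).

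Other marker lists varied as follows in edgeR without the block. Monocyte markers fell for 3 of 8 tested (Ly6c2, Ccr2 and Treml4), with summed levels of 1469 to 2241 CPM in PDPN-negative and 1370 to 1557 CPM in PDPN-positive libraries. Conventional dendritic cell markers fell for 2 of 5 (Batf3 and Dpp4), and the 1 tested marker of B and plasma cells (Ighm) and of T and NK cells (Cd4) fell. None of 6 epithelial and 4 endothelial markers passed; with the block Cdh1 and Pecam1 were called higher and Epcam and Krt8 lower. Their summed levels were 77.9 to 208 and 146.9 to 409 CPM in PDPN-negative and 93.5 to 255.5 and 202.9 to 490 CPM in PDPN-positive libraries.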
